A study of Homo sapiens with 10 samples.

Results

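The genes described are the nuclear-encoded subunits of the mitochondrial respiratory chain and of ATP synthase, measured in a pair of human lung carcinoma lines after knockdown of ID1. They were taken by symbol from the array annotation: names beginning with NDUFA, NDUFB, NDUFC, NDUFS, NDUFV, SDH, UQCR, COX4I, COX5, COX6, COX7, COX8 or ATP5, without assembly factors (NDUFAF and SDHAF), pseudogene names and names with a hyphen. This gave 77 of the 19775 genes on the array: 33 of complex I, 3 of complex II, 6 of complex III, 17 of complex IV and 18 of ATP synthase, among them its inhibitor ATP5IF1. Each gene was represented by its probe set of highest mean log2 signal over the 10 arrays. A total of 72 exceeded a mean log2 signal of 6.06 (a signal of 66.7), the median over probe sets, and were tested among 12514 genes, and 5 did not (ATP5MF, COX6B2, COX7A1, COX7B2 and COX8C). The rule used no measured difference between groups. Other subunits of these complexes were not analysed here.

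The respiratory chain passes electrons from NADH (complex I) and succinate (complex II) through ubiquinone to complex III, and from there through cytochrome c to oxygen at complex IV. The protons pumped on the way drive ATP synthase, in which a rotating ring of c subunits turns a stalk inside the catalytic F1 head. Most subunits are encoded in the nucleus, while the remaining ones come from mitochondrial DNA, so the assembled complexes draw on both genomes. Lung carcinoma lines in culture use both glycolysis and this chain.

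The series concerned genes downstream of ID1, which pairs with basic helix-loop-helix (bHLH) factors and keeps them from DNA. A549 and H1650 are established lines of non-small cell lung carcinoma, and each gave 5 arrays. In each line 3 arrays carried control siRNA (no stimulus, nicotine or EGF) and 2 carried ID1 siRNA (nicotine or EGF), so ID1 siRNA without a stimulus is not among the conditions. All cells had been deprived of serum for 48 h. Stimulated cells then received 1 µM nicotine, the ligand of nicotinic acetylcholine receptors, or EGF at 100 ng/ml, which activates the EGF receptor, for 18 h. There was 1 array per line and condition, and separate cultures are nowhere stated, so p-values measure only the spread between these samples, which may be technical. The siRNA sequences are not given in the sources used here.

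ID1 itself had signals of 3720 (nicotine) and 3049 (EGF) with control siRNA in A549 against 1343 and 1343 with ID1 siRNA, and of 4964 and 5121 against 881 and 1031 in H1650. The unstimulated A549 control stood at 1645, near the ID1 siRNA arrays of that line, and the unstimulated H1650 control at 5030. All 5 epithelial markers examined (KRT8, KRT18, KRT19, EPCAM and CDH1) lay above the filter, with summed signals of 55502 to 86051 in A549 and 87827 to 100613 in H1650. Fibroblast markers summed to 466 to 1065 and 708 to 1223 in these lines, with 2 of 5 above the filter, and 1 of 3 endothelial, 1 of 4 blood and 1 of 4 muscle markers lay above it. The A549 control siRNA EGF array stood apart: its median signal was the lowest of the 10 (61.2) and its highest signal the largest (56869), with a 99th percentile of 17807 against 11763 to 13611 on the other arrays. The main counts and medians for A549 are therefore also given after quantile normalization, which gives all arrays the same distribution. In lysates of whole cultures, fewer cells of a type and less RNA per cell cannot be told apart.

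Stretches of the promoters of 6 subunits are shown here, picked among those with a motif match. Genes of the respiratory chain are known to share promoter motifs for nuclear respiratory factors (NRF1, and NRF2, an ETS protein also called GABP). E-boxes are the motif of the bHLH factors that ID1 binds. For NDUFB3, NDUFA1, NDUFB10, NDUFB2, ATP5MC2 and ATP5MJ no match was found, or no promoter was found by gene identifier. Sequences are RefSeq's on GRCh38.p14, written 5′ to 3′ on the strand of the gene. Capitals mark exact matches, on either strand, to the palindromic NRF1 motif, CCGGAAGT (ETS; ACTTCCGG on the opposite strand) or CAGCTG (an E-box form). NDUFV3 and NDUFB4, accessory subunits of complex I, stand at chr21:42893216-42893308 (+) and chr3:120596162-120596201 (+). NDUFS1, which carries iron-sulfur clusters of complex I, stands at chr2:206159580-206159617 (-), and SDHD, a membrane anchor of complex II, at chr11:112086737-112086817 (+). COX8A, a small subunit of complex IV, stands at chr11:63974586-63974619 (+), and ATP5PD, of the peripheral stalk of ATP synthase, at chr17:75047049-75047086 (-).
NDUFV3: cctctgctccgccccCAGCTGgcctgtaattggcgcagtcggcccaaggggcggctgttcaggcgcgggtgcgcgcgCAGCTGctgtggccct
NDUFB4: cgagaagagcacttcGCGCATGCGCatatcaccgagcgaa
NDUFS1: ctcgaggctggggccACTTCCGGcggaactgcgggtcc
SDHD: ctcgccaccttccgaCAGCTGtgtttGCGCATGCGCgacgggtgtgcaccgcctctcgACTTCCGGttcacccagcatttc
COX8A: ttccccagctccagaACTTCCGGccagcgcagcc
ATP5PD: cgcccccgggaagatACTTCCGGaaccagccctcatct

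Promoters of 66 of the 77 genes were found by gene identifier, each spanning 250 bases before to 50 after the start of the gene. The NRF1 motif occurred in 4 of the 66 (6.06%) against 1.36% of the promoters of 27305 genes. CCGGAAGT occurred in 9 (13.6% against 4.44%), and AAGATGGCG, the motif of YY1, in 7 (10.6% against 1.85%). CAGCTG occurred in 15 (22.7% against 17.7%) and CCAAT in 23 (34.8% against 35.7%). Both strands were searched, and the motifs were counted separately where they overlapped. Among the 25 promoters of subunits that ID1 siRNA lowered in A549 (below), these motifs occurred in 1, 3, 1, 2 and 10, and among the 38 of other tested subunits in 3, 6, 6, 12 and 11. A match describes letters in this window only.

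The lines differed most in individual subunits, in both directions within complexes I, III and IV and ATP synthase. With the signals as deposited, 23 of 72 subunits were higher in A549 and 19 lower (58.3%), while 63.1% of all genes tested differed between the lines, 30.9% higher and 32.2% lower (limma, adjusted p under 0.05). The median log2 difference was 0.07 over the subunits and -0.03 over all genes. The division between directions moved with the scaling, to 18 higher and 28 lower after quantile normalization (all genes 32.3% and 32.0%) and to 26 and 9 after centring each array on its median (36.6% and 25.5%), and 27 subunits were called with the same sign in all of these. All 5 A549 arrays lay above all 5 H1650 arrays for 20 subunits (24.7% of all genes) and below them for 12 (25.3%). After quantile normalization the order turned, with 15 above (25.6%) and 22 below (25.4%).

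In complex I, 8 of 33 subunits were higher in A549 and 11 lower, nearly all of them accessory subunits. NDUFA7 had signals of 1368, 1466, 1432, 1764 and 1062 on the A549 arrays (control siRNA without stimulus, with nicotine and with EGF, then ID1 siRNA with nicotine and with EGF) and of 855, 696, 875, 868 and 630 on the H1650 arrays in the same order. No A549 value reached down to the H1650 range, and limma gave a log2 difference of 0.85 (SE 0.10, adjusted p = 0.000122). A second, dimmer probe set of NDUFA7, below the filter, had the opposite sign (-1.85). NDUFB10, of the membrane arm, had signals of 7927, 8704, 10976, 5736 and 6772 in A549 and of 5352, 4958, 4064, 4603 and 4564 in H1650. Its lines did not overlap either (log2 difference 0.74, SE 0.15, limma adjusted p = 0.00274), and its second probe set was also higher in A549 (0.84). NDUFV3, an accessory subunit beside the NADH-binding site, was the lowest in A549 relative to H1650, with signals of 1784, 2402, 2662, 1817 and 2159 against 3758, 4084, 4222, 3027 and 3032. The difference was -0.75 (SE 0.10, limma adjusted p = 0.000239), although a dimmer probe set of the same gene was higher in A549 (1.02). NDUFA6 (-0.73), NDUFA10 (-0.68) and NDUFB7 (-0.58) were also lower in A549. Of the catalytic core, NDUFS1 was lower in A549 (log2 difference -0.48, SE 0.10, limma adjusted p = 0.00356). It was not called after centring (-0.32, limma adjusted p = 0.0547), and its sign reversed with the mean of all its probe sets. For the other 4 core subunits, NDUFS3, NDUFS7, NDUFV1 and NDUFV2, the differences ran from 0.02 to 0.22 and were not called.

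Of the 3 complex II subunits analysed, 2 differed, both lower in A549, while 63.1% of all genes tested differed between the lines. SDHB, a further subunit of complex II, was not among the genes analysed. SDHD had signals of 3937, 4398, 4292, 4260 and 4094 in A549 and of 6801, 7227, 5954, 5908 and 5422 in H1650, with no overlap. Its log2 difference was -0.57 (SE 0.09, limma adjusted p = 0.000752). SDHA, the flavoprotein that oxidises succinate, gave -0.54 (SE 0.12, adjusted p = 0.00376), and both were called under all 3 scalings. SDHC, the other membrane anchor, gave 0.04 and was not called.

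In complex III the small subunit UQCR10 was lower in A549 (log2 difference -0.66, SE 0.11, limma adjusted p = 0.000674), as was the core protein UQCRC2 (-0.48), while UQCRB, which lies at a ubiquinone site, was higher (0.56, SE 0.13, adjusted p = 0.00413). UQCR11 was also called higher (0.38), but not after quantile normalization. The core protein UQCRC1 gave -0.20 and was called lower only after quantile normalization. In complex IV, whose nuclear subunits surround a catalytic core made from mitochondrial DNA, 7 of 13 subunits were higher in A549 and 1 lower. COX5A was the largest of them, with signals of 21120, 21483, 25930, 18346 and 21327 in A549 against 15181, 15723, 13362, 14730 and 15574 in H1650 (log2 difference 0.53, SE 0.12, limma adjusted p = 0.00406). COX7A2 (0.51), COX6B1 (0.50) and COX7C (0.49) were higher too, and COX5B was lower (-0.32). After quantile normalization 4 were higher and 3 lower, so the one-sided count in complex IV rests on the scaling.

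In ATP synthase the F1 head and the c ring held most of the subunits that were higher in A549. ATP5F1A, ATP5F1B, ATP5F1C and ATP5F1D, which are the alpha, beta, gamma and delta subunits, gave log2 differences of 0.67, 0.44, 0.69 and 0.60, and all 4 were called under all 3 scalings. ATP5F1E, the epsilon subunit, was lower (-0.45, SE 0.12, limma adjusted p = 0.00984), though not after centring. The c ring is encoded by 3 genes with the same mature protein. ATP5MC2 had signals of 12003, 13129, 17537, 8897 and 9771 in A549 and of 7351, 6677, 6832, 5900 and 5200 in H1650. The lowest A549 value exceeded the highest H1650 value, and the difference was 0.91 (SE 0.12, limma adjusted p = 0.000232). ATP5MC1 was higher as well (0.78, SE 0.11, limma adjusted p = 0.000244), while ATP5MC3 gave -0.04 and was not called. Of the peripheral stalk ATP5PO was lower with deposited and quantile-normalized signals (-0.51), not after centring, and the inhibitor ATP5IF1, which blocks the reverse reaction, was lower in A549 (-0.46, SE 0.09, limma adjusted p = 0.00164). Across the subunits with more than 1 probe set above the filter (33), 22 had the same sign of the line difference in all of them.

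ID1 siRNA was compared with control siRNA within each stimulus, which gave 2 pairs of arrays per line. In A549, 28 of 72 subunits fell with the deposited signals (38.9%) and 0 rose, against 25.3% of all genes tested that were called, 11.4% that fell and 13.8% that rose (limma, adjusted p under 0.05). At an unadjusted p under 0.05 there were 46 in either direction, among them NDUFB7, NDUFA5 and NDUFA10, which rose. Here and below, counts at an unadjusted p are given without the share of all genes at that cutoff. The same holds for counts with an array left out, without an intensity trend or with the mean of all probe sets. Counts of either kind therefore cannot be set against all genes. The median log2 change was -0.34 over the subunits and 0.05 over all genes. After quantile normalization 20 fell and 1 rose (11.8% and 11.1% of all genes; median -0.13, all genes -0.03), and the same 20 were called in all 3 scalings. Centring raised the count that fell to 61 with 0 that rose (31.7% and 7.58% of all genes; median -0.63) and moved the median of all genes to -0.23. Both ID1 siRNA arrays lay below all 3 control arrays for 47 subunits (18.7% of all genes), and for 32 after quantile normalization (22.0%). They lay above them for 4 (23.0%), and for 7 after quantile normalization (17.2%). Of the 33 subunits with more than 1 probe set above the filter, 16 had the same sign of the A549 effect in all of them.

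**Figure D1:**
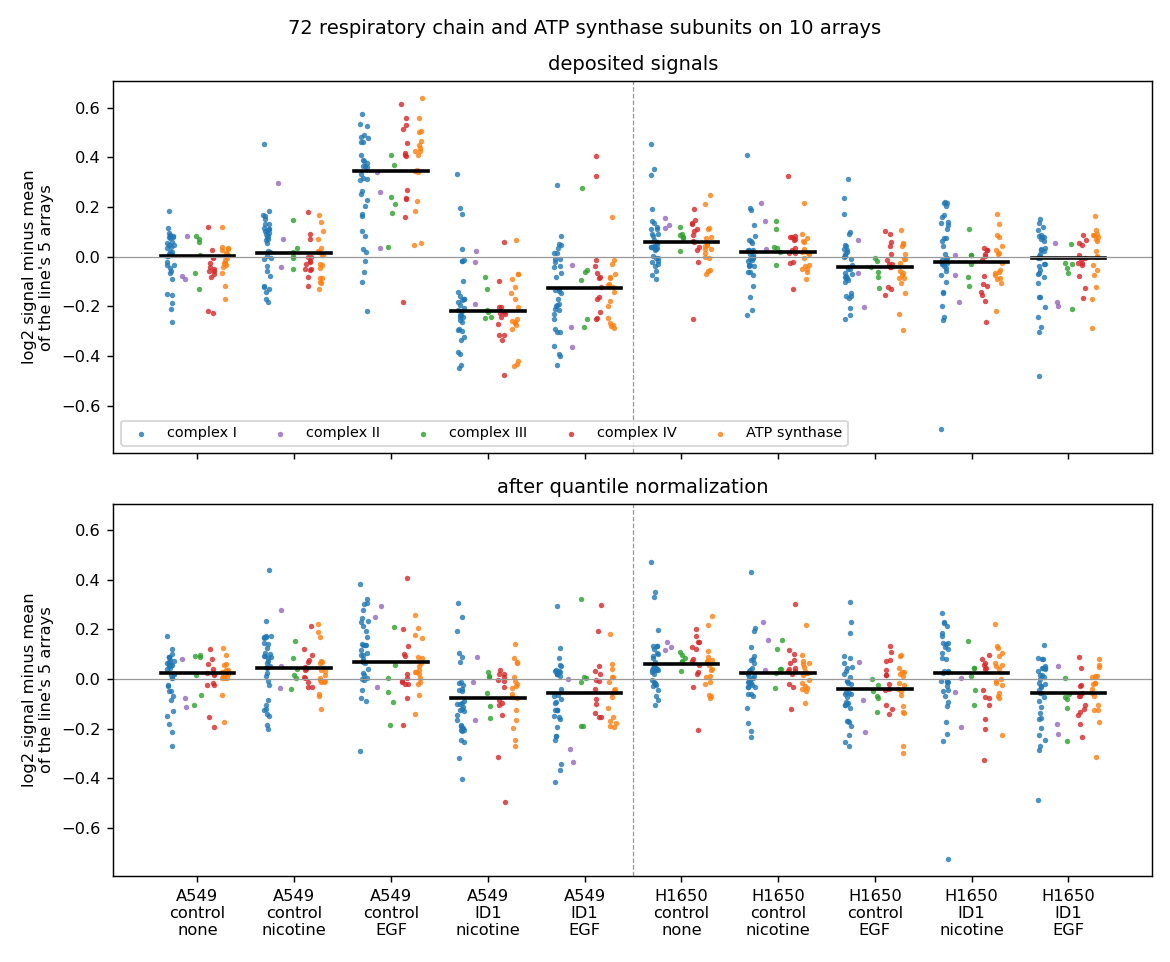
Log2 signal of 72 subunits on each of 10 arrays, minus the mean of the 5 arrays of that line, with 1 point per subunit coloured by complex and a black bar at the median. With deposited signals (top) the A549 control siRNA EGF array lies at 0.34 and the ID1 siRNA arrays at -0.22 (nicotine) and -0.13 (EGF); after quantile normalization (bottom) the EGF control lies at 0.07.

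The change was larger in the A549 EGF pair than in the nicotine pair, as the plot of every subunit on every array shows. On the A549 EGF control array 58 of 72 subunits had the highest signal of their line, as did 71.3% of all genes with a mean log2 signal of at least 12, and after quantile normalization 27 did. Within the nicotine pair alone the median change was -0.25 (-0.09 after quantile normalization), with 60 of 72 subunits lower (49.2% of all genes). Within the EGF pair it was -0.49 (-0.17), with 64 lower (43.3% of all genes). Without the EGF control array 10 subunits were called, and with quantile normalization as well, 2 (ATP5MJ and COX8A). Under every alternative of scaling, added signal, filter and array left out singly, 9 subunits stayed called as lower: ATP5MC2, ATP5MJ, ATP5PD, COX8A, NDUFA1, NDUFA12, NDUFB10, NDUFB2 and NDUFB3. Without an intensity trend in the fit 6 of the 28 remained, and NDUFA1, NDUFA12 and NDUFB2 were lost. With the mean of all probe sets 13 remained, and ATP5MC2 was lost. Whether all genes lost calls to a like degree under these settings was not tested.

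By complex, with deposited signals, complex I held 16 of the 28, of which 15 were among its 28 tested accessory subunits and 1, NDUFS1, among 5 core subunits. NDUFA1, a membrane arm subunit needed for assembly of the complex, had signals of 14532, 15896 and 20146 on the A549 control arrays (none, nicotine, EGF) and of 11189 and 10338 with ID1 siRNA (nicotine, EGF). Both knockdown values lay below all controls, and the gene fell by 0.73 on the log2 scale (SE 0.14, limma adjusted p = 0.00717), or by 0.42 after quantile normalization. NDUFB10 gave 7927, 8704 and 10976 with control siRNA and 5736 and 6772 with ID1 siRNA. It fell by 0.65 (SE 0.11, limma adjusted p = 0.00387), with the groups apart. NDUFB2 (-0.70), NDUFA12 (-0.64), NDUFB1 (-0.61) and NDUFB4 (-0.60) fell likewise. NDUFS1 had 1865, 2416 and 2803 with control siRNA and 1898 and 1949 with ID1 siRNA, so its unstimulated control lay below both knockdown arrays. It fell by 0.44 (SE 0.10, limma adjusted p = 0.0154) and by 0.45 after quantile normalization, and all 4 of its probe sets above the filter had that sign. NDUFV1, which binds NADH, gave -0.22, NDUFS3 -0.22, NDUFS7 -0.19 and NDUFV2 -0.04, none of them called. NDUFB7 (0.26), NDUFA5 (0.24) and NDUFA10 (0.23) were the highest of complex I, and of these NDUFA5 was called after quantile normalization (0.35, limma adjusted p = 0.0158).

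SDHC was the subunit of complex II called with deposited and with quantile-normalized signals. Its signals were 2758, 3572 and 3685 with control siRNA and 2552 and 2264 with ID1 siRNA, and it fell by 0.59 (SE 0.10, limma adjusted p = 0.00368). The fall was about as large after quantile normalization (-0.54), and 5 of its 6 probe sets above the filter had the same sign in A549. SDHA gave -0.26 and SDHD -0.06. In complex III UQCRB (-0.47) and UQCR10 (-0.43) fell, and UQCR10 but not UQCRB was also called after quantile normalization. A dimmer probe set of UQCR10 had the opposite sign (0.44), and the mean of its probe sets gave 0.0041. UQCRC1 (-0.34) and UQCRC2 (-0.17) were not called.

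In complex IV 3 of 13 subunits fell. COX8A had signals of 10626, 12544 and 15976 with control siRNA against 7955 and 9826 with ID1 siRNA, all below the controls, and fell by 0.68 (SE 0.11, limma adjusted p = 0.00373). It was the only complex IV subunit called after quantile normalization (-0.40). COX7A2 (-0.44) and COX6B1 (-0.43) were called with deposited signals alone or with centring. COX4I1 (-0.51), COX6C (-0.52), COX7B (-0.35) and COX6A1 (-0.30) were not called. In ATP synthase the called subunits were in the membrane part and the peripheral stalk. Of the 5 F1 subunits 0 were called by limma (2 had an unadjusted p under 0.05), though 4 were after centring. ATP5PD had signals of 15830, 17423 and 25239 with control siRNA and of 12021 and 13388 with ID1 siRNA. It fell by 0.73 (SE 0.14, limma adjusted p = 0.00665), and by 0.35 after quantile normalization. ATP5PB, also of the peripheral stalk, fell by 0.56, but its second, dimmer probe set gave 0.95 and the mean of both 0.20. In the c ring ATP5MC2 fell by 0.70 (SE 0.12, limma adjusted p = 0.00431) and ATP5MC1 by 0.53, while ATP5MC3 gave -0.29 and was not called. The mean over the probe sets of ATP5MC2 was 1.05, through a second one below the filter (2.80). ATP5MJ, a small membrane subunit, fell by 0.59 and by 0.32 after quantile normalization. ATP5F1A gave -0.45, ATP5F1B -0.24, ATP5F1C -0.36, ATP5F1E -0.27 and ATP5F1D 0.14. The inhibitor ATP5IF1 gave -0.12.

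**Figure D2:**
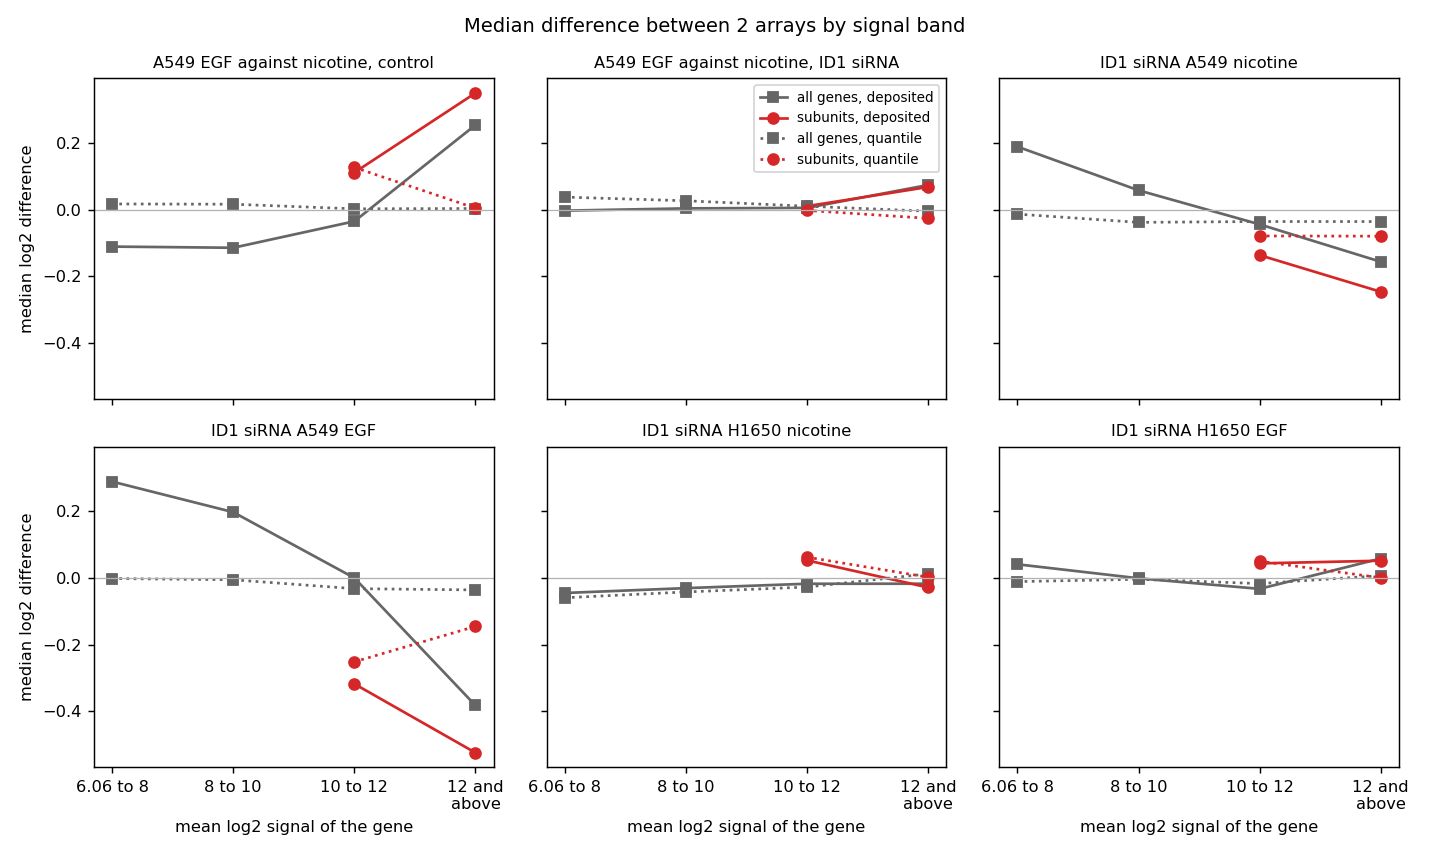
Median log2 difference between 2 arrays for all tested genes (squares) and for the subunits (circles, bands with at least 10), by mean log2 signal, as deposited (solid) and after quantile normalization (dotted). In the A549 EGF pair the bright genes as a whole lie at -0.38 and the subunits at -0.52 with deposited signals, and at -0.04 and -0.15 after quantile normalization.

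Brightness moved with this result. Of the 72 subunits 53 had a mean log2 signal of at least 12, where 1423 of all tested genes lay, and 446 of these 1423 fell in A549 with deposited signals, as did 23 of the 53 subunits. After quantile normalization the counts that fell were 262 and 15. As the plot by signal band shows, in the nicotine pair the bright genes had a median of -0.16 and the bright subunits of -0.25, and after quantile normalization these were -0.04 and -0.08. In the EGF pair they were -0.38 and -0.52, and then -0.04 and -0.15. In H1650 the medians of the bright subunits were -0.03 (nicotine) and 0.05 (EGF), against -0.02 and 0.06 for all bright genes. The part that brightness has in the fall of single subunits was not tested.

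In H1650 ID1 siRNA lowered 2 of 72 subunits, and 0 rose by limma (all genes 12.3%, of which 6.66% fell and 5.64% rose). At an unadjusted p under 0.05 there were 10 in either direction, among them NDUFA10 and NDUFB7, which rose. The median was 0.02 as deposited, -0.0015 after quantile normalization and -0.03 after centring. Quantile normalization added NDUFB1 (-0.22; 8.03% of all genes fell and 6.94% rose), and centring gave 2 (9.01% and 4.93%). NDUFB3 and NDUFV3 were called under all 3 scalings and were also among those that fell in A549. Leaving out any 1 stimulated H1650 array left NDUFB3 alone, and without an intensity trend 0 were called. Of the 33 subunits with more than 1 probe set above the filter, 17 had the same sign of the H1650 effect in all of them. NDUFB3, a membrane arm subunit of complex I, had signals of 5157, 5001 and 4668 with control siRNA in H1650 (none, nicotine, EGF) and of 2325 and 2692 with ID1 siRNA (nicotine, EGF). In A549 its signals were 2976, 4637 and 4363 with control siRNA and 2880 and 2581 with ID1 siRNA. In H1650 the knockdown arrays lay far below all controls, whereas in A549 the unstimulated control lay close to them. NDUFB3 fell by 0.95 in H1650 (SE 0.11, limma adjusted p = 0.00188) and by 0.72 in A549 (SE 0.11, adjusted p = 0.00206), and it has 1 probe set. It was the lowest of all 72 subunits in 3 of the 4 single pairs of arrays, and in all 4 after quantile normalization.

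**Figure D3:**
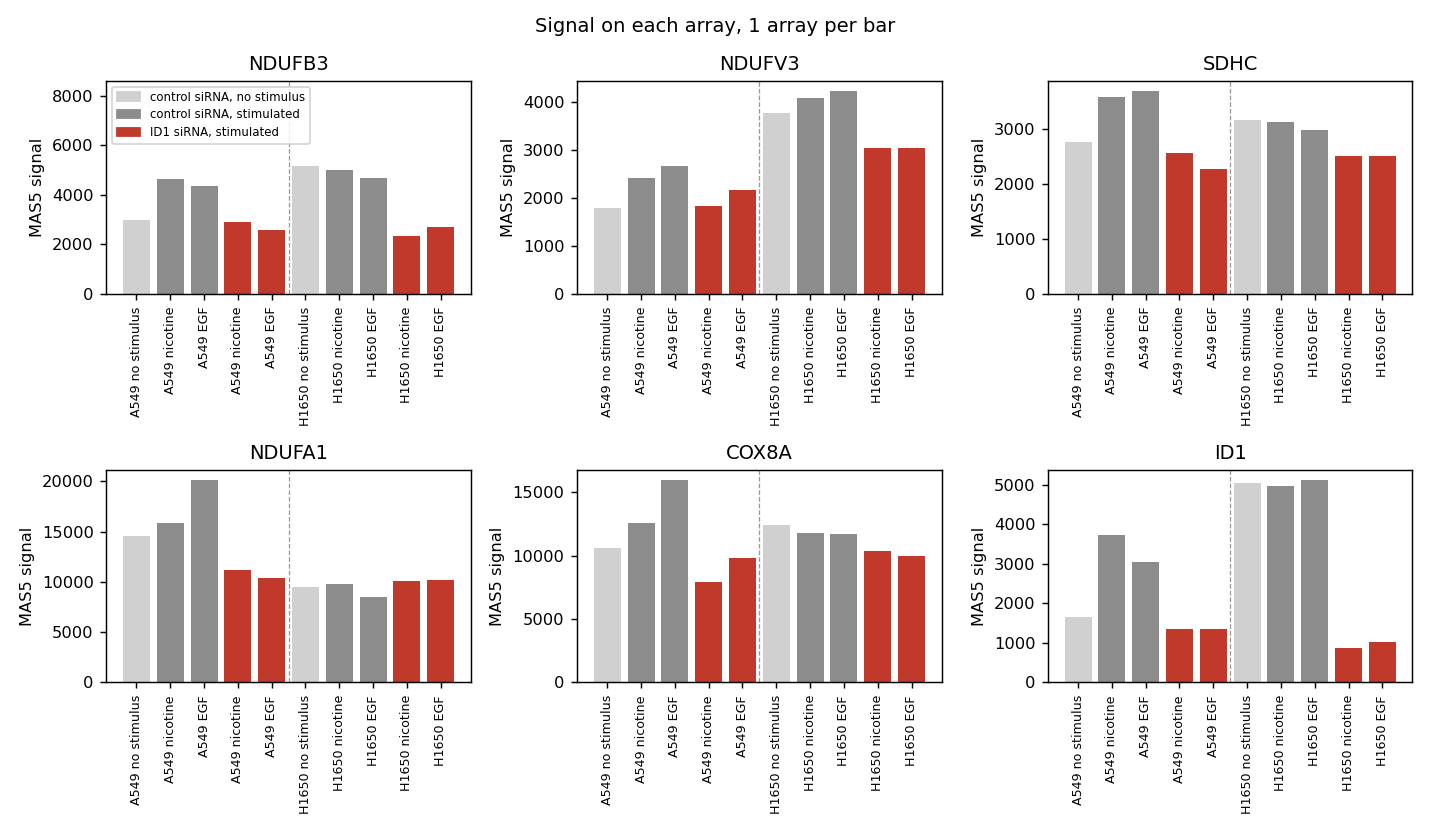
MAS5 signal of 5 subunits and of ID1 on each array, with 1 bar per array, control siRNA in grey (light without stimulus) and ID1 siRNA in red. NDUFB3 stands at 2325 and 2692 with ID1 siRNA in H1650 against 4668 to 5157 with control siRNA, and in A549 the unstimulated control (2976) is close to the ID1 siRNA arrays.

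NDUFV3 had signals of 3758, 4084 and 4222 with control siRNA in H1650 and of 3027 and 3032 with ID1 siRNA. In A549 it had 1784, 2402 and 2662 with control siRNA and 1817 and 2159 with ID1 siRNA, so there the unstimulated control was the lowest array. It fell by 0.45 in H1650 (SE 0.09, limma adjusted p = 0.0167) and by 0.35 in A549 (SE 0.09, adjusted p = 0.0263). Its second, dimmer probe set gave -0.15 in H1650 and 0.87 in A549, against that fall. The promoter stretch of NDUFV3 shown above holds CAGCTG at 2 places. Among subunits that fell in A549, CAGCTG occurred in 2 of 25 promoters, against 12 of 38 of the other tested subunits. Any part of this motif in the fall of NDUFV3 was not tested. Among the subunits not called in H1650, SDHC (-0.29, adjusted p = 0.101), ATP5MC2 (-0.29) and ATP5MC1 (-0.27) were the next lowest that also fell in A549. For SDHC the H1650 signals were 3154, 3129 and 2972 with control siRNA and 2501 and 2501 with ID1 siRNA, with no overlap. NDUFA10 (0.28) and NDUFB7 (0.27) were the highest in H1650, as they were among the highest in A549, and were not called in either. Both knockdown arrays lay below all 3 controls for 17 subunits in H1650 (23.9% of all genes) and above them for 9 (21.5%).

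**Figure D4:**
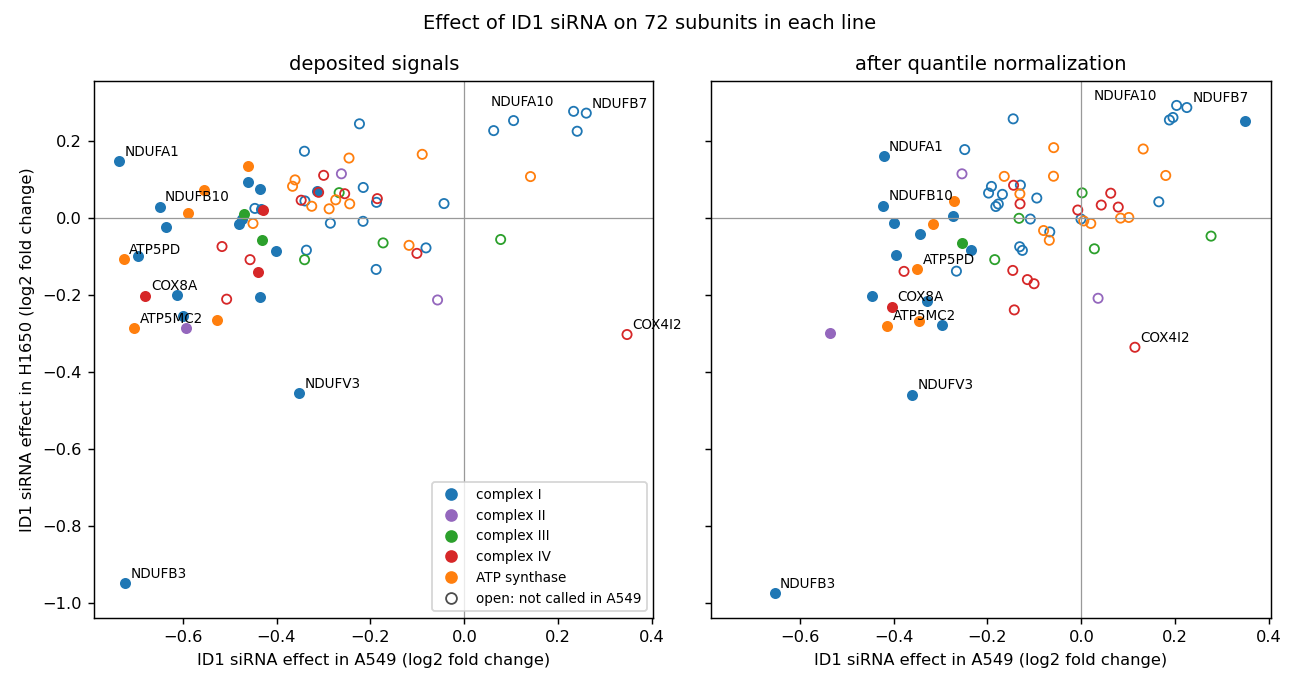
Log2 change with ID1 siRNA in A549 (horizontal) and H1650 (vertical) for 72 subunits coloured by complex, as deposited (left) and after quantile normalization (right); filled points were called in A549. NDUFB3 is low in both lines (-0.72 and -0.95), whereas NDUFA1 is low in A549 (-0.73) and at 0.15 in H1650.

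The difference between the lines in the effect of ID1 siRNA was tested directly. It was called for 2 of 72 subunits, NDUFA1 and NDUFB10, both lower in A549 (11.9% of all genes were called, 4.92% lower and 6.98% higher), with 27 at an unadjusted p under 0.05. Leaving out 1 array gave 0 to 23, with 0 without either H1650 EGF array, NDUFA1 alone without either A549 EGF array and NDUFB10 alone without either H1650 nicotine array. Without an intensity trend 0 were called. NDUFA1 in H1650 had 9465, 9749 and 8541 with control siRNA and 10086 and 10144 with ID1 siRNA, where the knockdown arrays were the highest, against the fall in A549. The difference was -0.88 (SE 0.20, limma adjusted p = 0.0265), and -0.58 after quantile normalization (adjusted p = 0.00906). For NDUFB10, H1650 had 5352, 4958 and 4064 with control siRNA and 4603 and 4564 with ID1 siRNA, which overlap. Its difference was -0.68 (SE 0.16, limma adjusted p = 0.0268), and -0.45 after quantile normalization, where it was no longer called (adjusted p = 0.0553). The median difference over all subunits was -0.34 with deposited signals, -0.10 after quantile normalization and -0.58 after centring, against 0.07, 0.0026 and -0.17 for all genes. Quantile normalization left 1 called, NDUFA1 (5.17% of all genes lower, 6.14% higher), and centring gave 31, all lower (14.5% and 4.98%).

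The unstimulated control was not part of that test, and the A549 arrays with ID1 siRNA were set beside it separately. Their median log2 difference from it was -0.21 (nicotine) and -0.14 (EGF) over the subunits, and -0.09 in both after quantile normalization. Over all genes it was 0.01 and 0.02, and then -0.03 and -0.01. Among genes with a mean log2 signal of at least 12 it was -0.16 and -0.08 over all genes and -0.23 and -0.14 over the subunits. After quantile normalization these were -0.03 and -0.04 over all such genes and -0.09 and -0.10 over such subunits. After quantile normalization 40 subunits had both ID1 siRNA arrays below both stimulated controls in A549, and for 12 of these (30.0%) the unstimulated control lay nearer to the ID1 siRNA arrays. Over all genes with that order the share was 56.4%. With deposited signals it was 25 of 55 (45.5%), against 59.9% of all genes. Those 12 included NDUFB3, NDUFV3, NDUFS1, SDHC and COX8A. In H1650 the count after quantile normalization was 1 of 18 (5.56%), against 19.9% of all genes.

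Nicotine and EGF were compared with no stimulus in cells with control siRNA. These comparisons share their unstimulated arrays. Over both lines, limma called 0 subunits for nicotine and 0 for EGF, and also 0 of all genes tested (0% in both). At an unadjusted p under 0.05 there were 0 and 1 subunits, the latter NDUFV3 with EGF (log2 difference 0.37, SE 0.16). The median differences were -0.02 (nicotine) and 0.13 (EGF), the second becoming -0.03 after quantile normalization.

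Within a line each comparison was of 1 array with 1 array and has no test. With nicotine in A549, 41 of 72 subunits (56.9%) were higher, against 52.2% of all genes (median 0.01, or 44 and 0.02 after quantile normalization). NDUFB3 was the 1 subunit past 1.5-fold (log2 difference 0.64), against 15.2% of all genes. With EGF in A549, 66 were higher, against 47.4% of all genes (median 0.38), and 6 passed 1.5-fold (20.7% of all genes). After quantile normalization 46 were higher with a median of 0.05, against 53.0% of all genes that were higher. In H1650, 56 subunits were lower with nicotine (median -0.05) and 59 with EGF (median -0.10), against 51.4% and 54.3% of all genes. In either, 0 subunits passed 1.5-fold (5.51% and 11.2% of all genes). The H1650 count and median with EGF were 59 and -0.11 after quantile normalization. EGF against nicotine, with 2 pairs per line, gave 0 called subunits by limma in A549 (0.0320% of all genes) and in H1650 (0.216%), with 14 and 1 at an unadjusted p under 0.05. The difference between the lines gave 0 as well (0.0799%, and 5 unadjusted). The A549 median was 0.19, or 0.01 after quantile normalization, and the H1650 median -0.02 or -0.07.

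Tissue isoforms of complex IV had low signals on all arrays. COX4I2, a paralogue of COX4I1 known from lung, had signals of 124 to 211, and COX6A2, the form of heart and skeletal muscle, of 72 to 112. Neither differed between the lines or with ID1 siRNA (limma adjusted p of 0.666 and 0.957 for the lines). COX7A1, also a muscle form, lay at 4.4 to 35, and COX7B2 and COX8C, known from testis, at 2.8 to 83 and 1.2 to 17. COX6B2 lay at 8.7 to 99. Outside complex IV, ATP5MF, a subunit of ATP synthase and not a tissue isoform, lay at 13 to 53 on the probe set used. Probe sets with several gene symbols were set aside, and their part in that low signal was not tested. COX7A2L, which takes part in supercomplexes of complexes III and IV, gave 0.22 between the lines and -0.31 with ID1 siRNA in A549 (limma adjusted p = 0.0504), neither called.

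Other genes of oxidative phosphorylation were counted from lists. Over all genes tested, ID1 siRNA lowered 11.4% and raised 13.8% in A549 (11.8% and 11.1% after quantile normalization), and lowered 6.66% and raised 5.64% in H1650. Of 50 assembly factors of the complexes, ID1 siRNA in A549 lowered 11 and raised 2, with the same counts after quantile normalization, and in H1650 it lowered 1 and raised 4. COA1, a factor for complex IV and complex I assembly, fell in both lines (log2 change -0.78 and -0.68, limma adjusted p = 0.00157 and 0.00641). Of 19 other electron carriers and quinone enzymes 8 fell in A549 and 0 rose (limma; 9 had an unadjusted p under 0.05), and 1 fell and 1 rose in H1650. After quantile normalization 7 fell and 1 rose in A549. GPD2, which passes electrons from glycerol 3-phosphate to ubiquinone, fell in both (-1.21 and -1.23, limma adjusted p = 0.000234 and 0.00129). CYC1, the cytochrome c1 of complex III, fell in A549 (-0.46, limma adjusted p = 0.0253) but gave -0.06 in H1650. Of 11 genes of the TCA cycle 3 fell and 1 rose in A549, or 2 and 1 after quantile normalization. SUCLA2, of succinyl-CoA ligase, rose in both lines (0.34 and 0.60).

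Of 75 mitochondrial ribosomal proteins 25 fell and 2 rose in A549 (11.4% and 13.8% of all genes; median -0.25), and 19 fell and 1 rose after quantile normalization (11.8% and 11.1%). In H1650, 1 fell and 4 rose (6.66% and 5.64% of all genes). Of 16 regulators of mitochondrial gene expression 2 rose in A549 and 0 fell by limma (5 had an unadjusted p under 0.05): PPARGC1B (0.92, limma adjusted p = 0.0110), a coactivator, and ESRRA (0.77, adjusted p = 0.00198), a nuclear receptor that binds it. Neither was called in H1650, and with deposited signals no other of these regulators was called for ID1 siRNA in either line. Between the lines TFAM, which packages mitochondrial DNA, was higher in A549 by 1.75 and POLRMT, the mitochondrial RNA polymerase, by 1.58 (limma adjusted p = 1.21e-06 and 1.26e-05). Of 13 genes for import channels and carriers 3 fell and 1 rose with ID1 siRNA in A549, and 0 fell and 1 rose after quantile normalization.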

How the data were processed

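Per the labels, total RNA of each culture was hybridised to Affymetrix U133 Plus 2.0 arrays. The values the authors deposited are linear signal intensities, made with GCOS 1.4 and MAS5 per the submitters' processing notes. The 2% trimmed mean of every array is 500.1. Log2 was taken here. Of 54675 probe sets, 41091 with 1 gene symbol in the platform annotation, which can be old, were used, and 62 controls, 1801 with several symbols and 11721 with none were set aside. The labels' protocols mention log2 values, but the deposited ones are linear. The number of arrays limits the precision.

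Limma 3.58.1 in R 4.3.3 was fitted to all 12514 tested genes with an intensity trend and Benjamini-Hochberg adjustment. A fit of line and condition used 10 arrays (4 residual degrees of freedom). A fit with the 4 matched pairs of equal line and stimulus as blocks used the 8 stimulated arrays (2 residual degrees of freedom). The pairing comes from the labels and not from replicate numbers. Nothing says that arrays came from separate cultures, so errors measure how effects differ between lines or stimuli, moderated by other genes of similar signal, and may be technical. Alternatives were quantile normalization, array-median centring, adding 16 to signals, a mean log2 signal of at least 8 or no filter, averaging a gene's probe sets, no trend, no block and leaving out each array. On simulated data with known changes in A549, the fit recovered few of those of 1.5-fold, and its share of false calls exceeded the adjusted threshold.

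Named with values were complex II, tissue isoforms, core and F1 subunits, and up to 4 called members of largest change per complex and contrast, or the largest where none was called; other named subunits and genes of the lists were chosen after their values were seen. The members and the lists were chosen with earlier results of these data known.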

Additional observations from a re-analysis of the deposited data

Results flagged for a closer look

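The effect of ID1 siRNA differed between A549 and H1650, by the test of the difference itself in limma, for NDUFA1 (-0.88 on the log2 scale, A549 minus H1650) and for NDUFB10 (-0.68). NDUFA1 was lower with ID1 siRNA in both A549 pairs and higher in both H1650 pairs. NDUFB10 was lower in both A549 pairs, and in H1650 it was lower with nicotine (-0.11) and higher with EGF (0.17). The A549 EGF control array, which stands apart in its distribution of signals, enters both values. Its part was not tested beyond leaving the array out. Without it NDUFA1 was still called and NDUFB10 was not. Neither was called without either H1650 EGF array or without an intensity trend in the fit.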

How the results depend on the processing

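Every log2 change rests on 1 array per line and condition, and leaving out an array of a pair leaves 1 pair in that line, assumed to vary like the others. Leaving out each array in turn gave 15 to 23 subunits higher and 13 to 24 lower in A549 than in H1650, 10 to 41 lower with ID1 siRNA in A549, 1 to 2 lower in H1650, and 0 to 23 lower for the difference between lines. EGF against nicotine in A549 gave 0 to 1 higher, and all other counts stayed at 0. The count of 15 came without the nicotine control array of either line, and the 10 without either EGF array of A549. H1650 had 1 without any stimulated H1650 array. The difference had 23 and 22 without the ID1 siRNA and the control nicotine array of A549, 1 without either EGF array of A549 or either nicotine array of H1650, and 0 without either EGF array of H1650.

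Quantile normalization gave 1 higher with ID1 siRNA in A549 (11.1% of all genes) and 1 lower for the difference between lines (5.17%). Array-median centring gave 9 lower between lines (25.5% of all genes), 61 lower in A549 (31.7%) and 31 lower for the difference (14.5%). It moved the median of all genes from -0.03 to 0.12 between lines, from 0.05 to -0.23 in A549 and from 0.07 to -0.17 for the difference. The mean of all probe sets gave 1 higher in A549, H1650 and the difference, and 14 lower in A549 and 1 for the difference. It reversed NDUFS1 (0.080), NDUFA7 (-0.50) and NDUFV3 (0.14) between lines, ATP5MC2 (1.05), ATP5PB (0.20) and UQCR10 (0.0041) with ID1 siRNA in A549, and ATP5MC2 (2.44) for the difference. Without the intensity trend 6 were lower in A549, 0 in H1650 and 0 for the difference. A mean log2 signal of at least 8 gave 7 for the difference, and no replicate block gave 1. The cause of these changes was not tested. The other counts of subunits in this section are given without the share of all genes called under the same setting. They show how far the counts moved, and cannot be set against all genes.

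Leaving out the A549 EGF control array as well was chosen after seeing the data. With quantile normalization it gave 15 higher between lines, 2 lower in A549 and 0 for the difference, and with centring 55 lower in A549, 9 in H1650 and 40 for the difference. At 2-fold, 0 subunits passed for nicotine or EGF against none in either line.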
